A study of Mus musculus with 8 samples.

Results

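Chemokines are small secreted proteins that direct cell movement, and 9 genes of this system are described here in mouse CD8 T cells given formate or vehicle. They are the ligand genes Xcl1, Ccl3, Ccl4 and Ccl5 and the receptor genes Cxcr3, Ccr2, Ccr7, Cxcr4 and Cxcr5. They were found by symbol in the deposited count table, where each matched 1 of 35072 genes, and all 9 passed the filter on low counts.

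Chemokines bind receptors that cross the membrane and signal through inhibitory G proteins, and a cell that senses a gradient moves along it. Activated CD8 T cells are known sources of Xcl1, which attracts cross-presenting dendritic cells, and of the inflammatory chemokines Ccl3, Ccl4 and Ccl5. Ccr7 leads naive cells into lymph nodes, Cxcr3 and Ccr2 lead effector cells to inflamed tissue, Cxcr4 responds to Cxcl12 of bone marrow and stroma, and Cxcr5 leads cells to B cell follicles.

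The libraries came from naive wildtype CD8T cells of spleen and lymph nodes. All cultures were activated for 18 h through CD3 and CD28 in the presence of IL-12. The 4 control cultures then received PBS and the 4 formate cultures received 2 mM formate, a one-carbon metabolite, for 24 h. The labels do not state sex, age or the number of animals, nor whether libraries of a group are separate cultures. The p-values therefore measure only the spread between these libraries, which may be technical. Library totals ranged from 29361986 to 41393093 estimated counts. Titles carry codes: 10, 13, 1 and 7 for controls 1 to 4, and 11, 14, 2 and 8 for formate libraries 1 to 4. Neighbouring codes (1 and 2, 7 and 8, 10 and 11, 13 and 14) hold 1 control and 1 formate library each, but no label says that they belong together. The largest axis of variation, with 51.2% of the variance, separated codes 1, 2, 7 and 8 from codes 10, 11, 13 and 14, not formate from control. The second axis, with 12.4%, separated formate (-22.96 to -8.99) from control (-1.873 to 28.74). Because of the split on the first axis, values below are given by code.

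Promoter sequences are shown for 3 of the 9 genes, 2 highly expressed ligands and the receptor whose level differed most between the 2 sets of codes. The promoter table used, from RefSeq (GRCm38.p6), matched 5 of the 9 genes by symbol. Each line gives the 250 bases before the start site of that promoter table in the gene's own direction, and capitals mark matches to the motifs searched. These start sites lie some bases away from the gene ends given below, which come from GENCODE.

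Xcl1, chr1:164935523-164935772, minus strand: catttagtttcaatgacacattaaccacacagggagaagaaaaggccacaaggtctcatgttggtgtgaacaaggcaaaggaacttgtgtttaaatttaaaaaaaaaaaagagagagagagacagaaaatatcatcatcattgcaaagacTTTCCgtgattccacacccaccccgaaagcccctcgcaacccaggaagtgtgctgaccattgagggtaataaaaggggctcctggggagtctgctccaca

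Ccl3, chr11:83649379-83649628, minus strand: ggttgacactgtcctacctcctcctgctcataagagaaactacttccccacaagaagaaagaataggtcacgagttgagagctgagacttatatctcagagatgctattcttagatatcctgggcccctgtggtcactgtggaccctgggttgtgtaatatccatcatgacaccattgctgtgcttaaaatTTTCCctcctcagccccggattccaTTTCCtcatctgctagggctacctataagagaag

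Cxcr4, chr1:128592300-128592549, minus strand: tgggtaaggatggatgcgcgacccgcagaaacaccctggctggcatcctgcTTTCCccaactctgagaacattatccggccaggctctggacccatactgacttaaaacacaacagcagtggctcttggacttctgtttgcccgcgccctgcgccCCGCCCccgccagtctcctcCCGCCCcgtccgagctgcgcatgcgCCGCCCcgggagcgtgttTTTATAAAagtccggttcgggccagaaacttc

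Both strands were searched for the core bound by NFAT (GGAAA, in 55.6% of 27025 promoters of this length), the AP-1 site (TGANTCA, 6.9%), the CRE (TGACGTCA, 1.6%), the TATA box (TATAAA, 13%) and the GC box (GGGCGG, 32.9%). NFAT carries calcium signals from the T cell receptor, and its core matched 1 time in Xcl1, starting 100 bases before the start site, and 2 times in Ccl3, at 59 and 34 bases. Cxcr4 held 1 such match at 199 bases, 3 GC boxes at 95, 75 and 50 bases, and a TATA box read on both strands in overlapping matches at 32 and 30 bases. The AP-1 and CRE letters were not in these 3 windows. The ligand promoters shown thus held neither a GC box nor the TATA letters searched, and a match is a description of letters only.

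Xcl1 and Ccl4 rose slightly with formate when neighbouring codes were compared with each other, and did not pass without that pairing. In the planned unpaired comparison 0 of the 9 genes passed an adjusted p of 0.05 (edgeR quasi-likelihood test), against 0.00752% of the 13299 genes tested. None of the 9 had a raw p under 0.05 there, and DESeq2 called 0 of the 9. With the title-code pairs as a block, 2 of 9 passed, both higher with formate, against 12.9% of all tested genes (5.35% higher and 7.52% lower). The 2 are Xcl1 and Ccl4. The median log2 change in that fit was 0.27 for the 4 ligands and -0.11 for the 5 receptors, beside -0.003 over all tested genes.

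By pair, Xcl1, Ccl3 and Ccl4 were higher with formate in all 4 pairs, as were 16.0% of all tested genes. Of the 9 genes, Ccr7 alone was lower with formate in all 4 pairs, as were 19.5% of tested genes. The ranges of the control and formate groups overlapped for all 9 genes, while 4.29% of tested genes had ranges that did not.

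**Figure D1:**
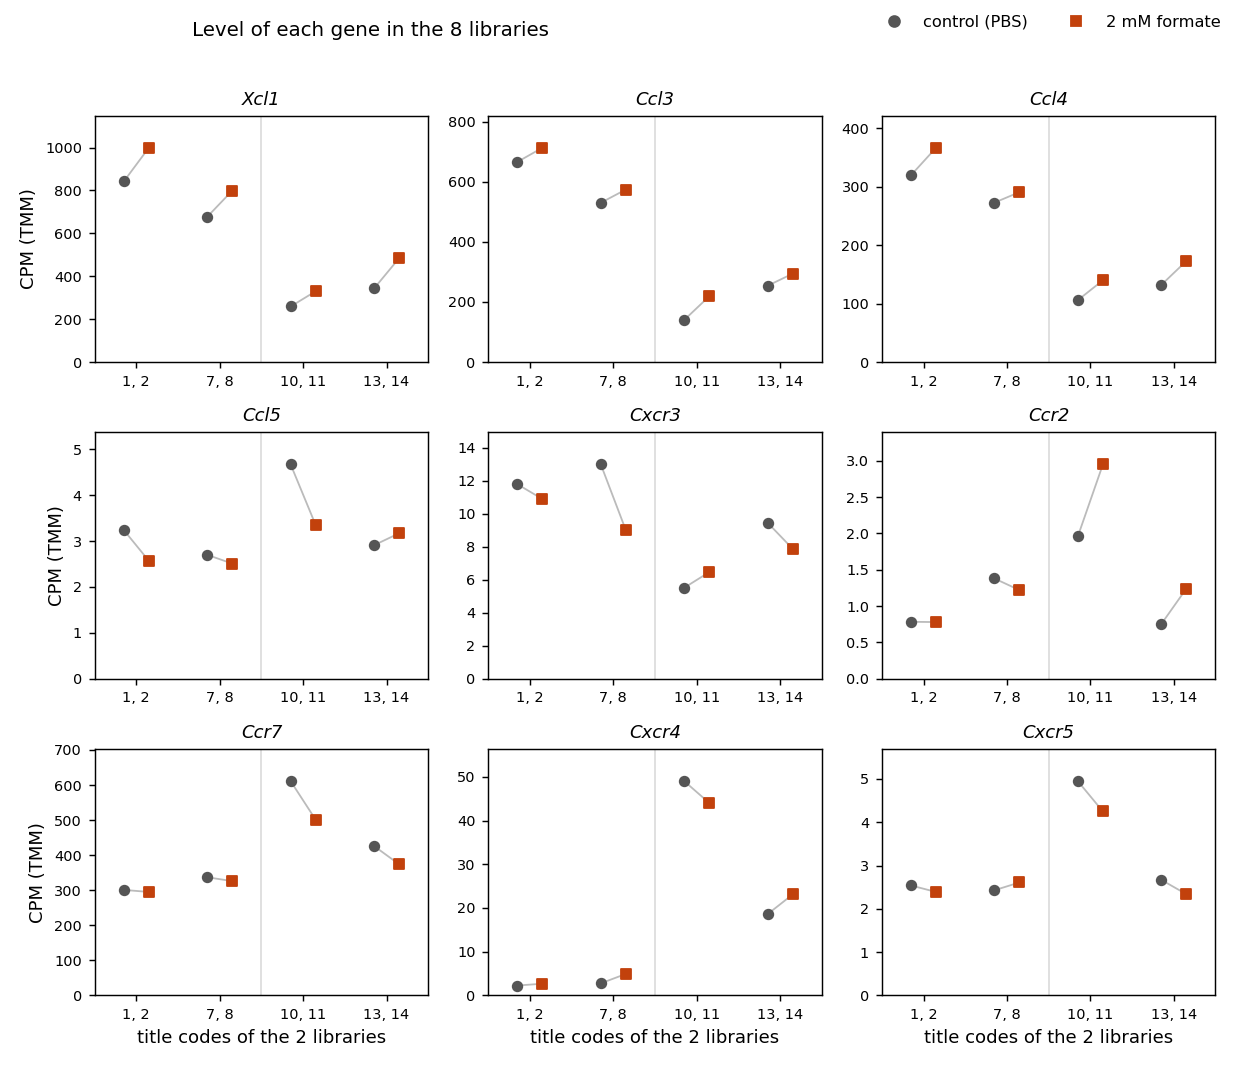
Normalised level (CPM with TMM factors, linear axes from 0) of the 9 genes in each library, with controls as circles, formate as squares and a line joining neighbouring title codes. The vertical line separates codes 1 to 8 from codes 10 to 14; Xcl1, Ccl3 and Ccl4 sit higher on the left and Cxcr4 on the right, and the step within a pair is small beside that gap.

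Levels between genes were compared per kilobase of exon (TPM, computed from the estimated counts), as means over 8 libraries. Xcl1 was the highest at 3214 TPM, followed by Ccl3 at 1575, Ccl4 at 969 and Ccr7 at 557. Cxcr4 at 27.7, Cxcr3 at 15.1 and Ccl5 at 9.13 TPM were far below, and Cxcr5 at 2.52 and Ccr2 at 0.569 TPM were the lowest. The first 3 kept their order in each of the 8 libraries, though their ranges overlapped. Ccr7 (440 to 816 TPM) overlapped both Ccl3 (481 to 2751 TPM) and Ccl4 (424 to 1644 TPM), and was above Ccl3 in code 10. Overlaps were also seen for Cxcr4 and Cxcr3 (3.75 to 71.6 against 8.43 to 20.8), for Cxcr3 and Ccl5 (7.33 to 12.8) and for Cxcr4 and Ccl5. The order within each of these pairs of genes is thus not fixed by the data, and Cxcr4 was below Ccl5 in codes 1, 2 and 7. The Cxcr4 range also met that of Cxcr5 (up to 3.93 TPM), though Cxcr4 was higher in each library. Ccr7 lay above Cxcr4, Ccl5 above Cxcr5, and Cxcr5 above Ccr2 in ranges that did not overlap.

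Xcl1 (ENSMUSG00000026573, chromosome 1, 164931644 to 164935527, minus strand, GRCm38) encodes lymphotactin, the ligand of Xcr1. In controls it stood at 842 CPM in code 1, 677 in code 7, 259 in code 10 and 343 in code 13. With formate it stood at 999 in code 2, 799 in code 8, 330 in code 11 and 484 in code 14. Each formate library was above its neighbour, but the formate libraries with codes 11 and 14 were below the controls with codes 1 and 7. Control libraries averaged 531 ± 275 CPM and formate libraries 653 ± 302 CPM (SD, n = 4 each). The unpaired log2 change was 0.30 (SE 0.44, edgeR adjusted p = 0.998), and ranged from 0.018 without formate library 3 to 0.61 without control library 3. With pairs as a block it was 0.33 (SE 0.051, edgeR adjusted p = 0.00222), a call kept under each alternative setting of that fit and with each pair left out (edgeR adjusted p from 0.0113 to 0.0325 without a pair). With the 2 sets of codes as a term in place of pairs it was 0.34 and did not pass (SE 0.15, edgeR adjusted p = 0.383). In bulk RNA a change in the number of cells transcribing a gene and a change in RNA per cell cannot be told apart.

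Ccl3 and Ccl4, which encode the macrophage inflammatory proteins 1-alpha and 1-beta, are neighbours on chromosome 11. Ccl3 (ENSMUSG00000000982) runs from 83647844 to 83649355 on the minus strand and Ccl4 (ENSMUSG00000018930) from 83662584 to 83664683 on the plus strand, 13.2 kb apart. Ccl4 stood at 320, 273, 106 and 132 CPM in the controls with codes 1, 7, 10 and 13, and at 367, 291, 140 and 173 CPM in formate codes 2, 8, 11 and 14. The libraries with codes 11 and 14 again lay below the controls with codes 1 and 7. The means were 208 ± 105 and 243 ± 105 CPM (SD, n = 4), and the unpaired log2 change was 0.23 (SE 0.42, edgeR adjusted p = 0.998). With pairs as a block Ccl4 rose by 0.27 (SE 0.054, edgeR adjusted p = 0.00643). Without codes 1 and 2 the change was 0.30 and missed the threshold (edgeR adjusted p = 0.0513). With the 2 sets of codes as a term in place of pairs Ccl4 changed by 0.27 and did not pass (SE 0.12, edgeR adjusted p = 0.367).

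Ccl3 had a more variable step than Ccl4. It stood at 666, 530, 140 and 254 CPM in the controls with codes 1, 7, 10 and 13, and at 713, 574, 219 and 294 CPM in formate codes 2, 8, 11 and 14. The log2 step was 0.10 and 0.11 in the first 2 pairs, 0.65 for codes 10 and 11 and 0.21 for codes 13 and 14, so 1 pair was far above the others. With pairs as a block the change was 0.26 (SE 0.095, edgeR adjusted p = 0.130). Without codes 10 and 11 it was 0.14 (edgeR adjusted p = 0.0688), and with no filter on low counts 0.25 (edgeR adjusted p = 1.77e-05). The unpaired change was 0.18 (SE 0.52, edgeR adjusted p = 0.998), and without formate library 3 (code 2) it was -0.14.

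Xcl1, Ccl3 and Ccl4 differed together between libraries. Xcl1 was 2.96 to 3.54 times Ccl4 per length in each library, and Ccl3 was 1.14 to 1.79 times Ccl4, lowest in the control with code 10. The 3 genes together summed to 505 CPM in code 10 and 2080 CPM in code 2. Their ratios thus varied less than their sum across the same 8 libraries.

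Ccl5 (RANTES), a chemokine that rises late after T cell activation, was low in these cells. Its gene (ENSMUSG00000035042, chromosome 11, 83525778 to 83530518, minus strand) lies 117.3 kb from Ccl3. It stood at 3.24, 2.70, 4.67 and 2.91 CPM in the controls with codes 1, 7, 10 and 13, and at 2.57, 2.51, 3.35 and 3.17 CPM in formate codes 2, 8, 11 and 14. It was lower with formate in 3 pairs and higher for codes 13 and 14, and the groups overlapped. The log2 change was -0.22 (SE 0.22) unpaired and -0.20 (SE 0.15) with pairs as a block (edgeR adjusted p = 0.998 and 0.421). Its estimates, from 76 to 164 counts a library, had the opposite sign to those of Ccl3 and Ccl4; that difference was not tested.

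**Figure D2:**
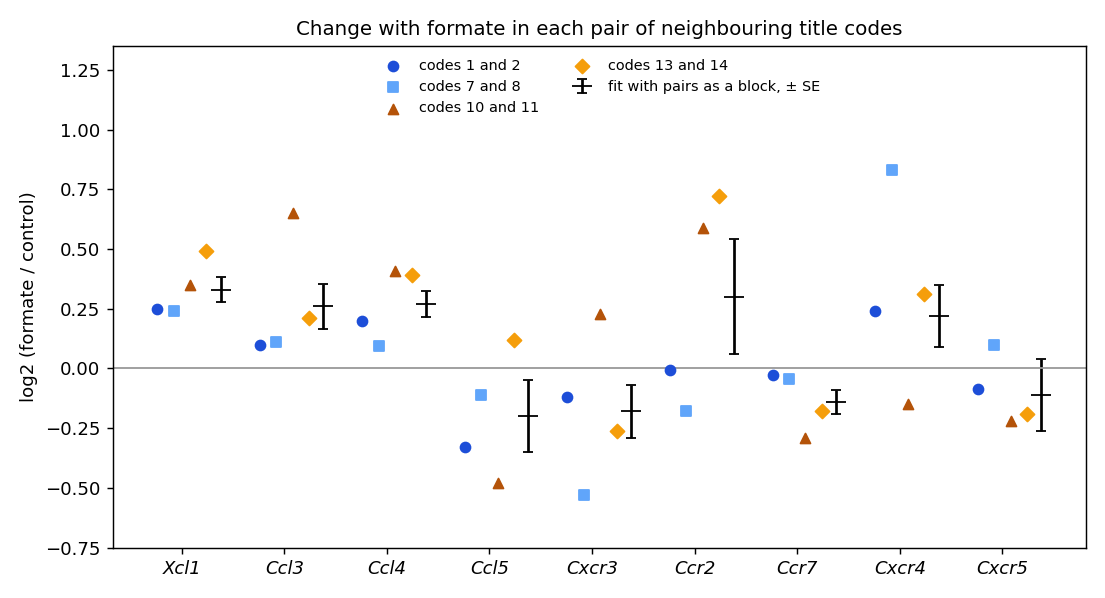
log2 ratio of formate to control (vertical axis) for each of the 9 genes in the 4 pairs of neighbouring title codes (coloured points), with the estimate and SE of the fit with pairs as a block (black). All 4 points lie above 0 for Xcl1, Ccl3 and Ccl4 and all 4 below 0 for Ccr7; Ccr2 and Cxcr4 have the widest spread, with points from -0.18 to 0.72 and from -0.15 to 0.83.

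Ccr7 (ENSMUSG00000037944, chromosome 11, 99144196 to 99155077, minus strand), the receptor for Ccl19 and Ccl21, was the most abundant of the 5 receptors per length. It stood at 301, 337, 611 and 426 CPM in the controls with codes 1, 7, 10 and 13, and at 295, 326, 501 and 374 CPM in formate codes 2, 8, 11 and 14. Each formate library was below its neighbour, by a log2 step of only -0.028 and -0.045 in codes 1 to 8 and by -0.29 and -0.18 in codes 10 to 14. The means were 419 ± 139 and 374 ± 90.8 CPM (SD, n = 4). The unpaired log2 change was -0.16 (SE 0.24, edgeR adjusted p = 0.998), and with pairs as a block it was -0.14 (SE 0.050, edgeR adjusted p = 0.0863). DESeq2 with the same block gave an adjusted p of 0.0370, and edgeR without the filter on low counts gave 0.0328.

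Cxcr4 (ENSMUSG00000045382, chromosome 1, 128588199 to 128592293, minus strand) had by far the widest range of the 9 genes. It stood at 2.27 and 2.77 CPM in the controls with codes 1 and 7 and at 49.0 and 18.6 CPM in those with codes 10 and 13. In formate libraries it stood at 2.68 and 4.92 CPM in codes 2 and 8 and at 44.0 and 23.1 CPM in codes 11 and 14. The libraries of the 2 sets of codes did not overlap, and the highest was 21.6 times the lowest. Of all tested genes, 0.180% had a larger difference between the sets. Control libraries averaged 18.2 ± 21.9 CPM and formate libraries 18.7 ± 19.2 CPM (SD, n = 4), with an unpaired log2 change of 0.038 (SE 1.1, edgeR adjusted p = 0.999). With pairs as a block the change was 0.22 (SE 0.13, edgeR adjusted p = 0.317). It was 0.43 and passed without codes 10 and 11 (edgeR adjusted p = 0.0484), the 1 pair in which Cxcr4 was lower with formate, and 0.11 without codes 7 and 8 (edgeR adjusted p = 0.562).

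Cxcr3 (ENSMUSG00000050232, chromosome X, 101731535 to 101734269, minus strand), the receptor for Cxcl9, Cxcl10 and Cxcl11, stood at 11.8, 13, 5.52 and 9.46 CPM in the controls with codes 1, 7, 10 and 13. In formate codes 2, 8, 11 and 14 it stood at 10.9, 9.01, 6.47 and 7.88 CPM. It was lower with formate in 3 pairs and higher for codes 10 and 11, the pair with the lowest levels. The log2 change was -0.21 (SE 0.27) unpaired and -0.18 (SE 0.11) with pairs as a block (edgeR adjusted p = 0.998 and 0.290). The block estimate was -0.063 without codes 7 and 8 and -0.30 without codes 10 and 11 (edgeR adjusted p = 0.792 and 0.0795).

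Cxcr5 (ENSMUSG00000047880, chromosome 9, 44511787 to 44561877, minus strand), the receptor for Cxcl13, stood at 2.54, 2.43, 4.95 and 2.67 CPM in the controls with codes 1, 7, 10 and 13. In formate codes 2, 8, 11 and 14 it stood at 2.39, 2.61, 4.25 and 2.34 CPM. In each group 1 library, code 10 or code 11, stood apart and the other 3 lay close together. The log2 change was -0.12 (SE 0.30) unpaired and -0.11 (SE 0.15) with pairs as a block (edgeR adjusted p = 0.998 and 0.691). Cxcr5 is also made by B cells, and the summed level of 8 B cell markers was likewise highest in codes 10 and 11 (28.3 and 32 CPM, against 16.4 to 20.7 CPM in the other 6 libraries). This was not particular to B cells. The CD4 T cell marker sum was also highest there (20.5 and 22.0 CPM, against 12.8 to 17.2 CPM), as was the NK sum (4.04 and 3.08 CPM, against 0.364 to 2.20 CPM). All 8 B cell markers had a mean of at least 0.1 CPM, Cd79b leading. The part of these cell types in the level of Cxcr5 was not tested. Of the 8 B cell markers 1 rose and 0 fell with pairs as a block (median 0.10), beside 5.35% of all tested genes higher and 7.52% lower. It was Ms4a1, the gene of CD20, higher with formate in 4 of 4 pairs (2.39 ± 1.16 and 3.67 ± 1.91 CPM, SD, n = 4). Its log2 change was 0.62 (SE 0.17, edgeR adjusted p = 0.0275), beside the rise of Xcl1 and Ccl4 in the same fit. That call was lost with DESeq2, with GC offsets and without codes 1 and 2, 10 and 11 or 13 and 14. The part of Ms4a1 in the changes of Xcl1 and Ccl4 was not tested.

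Ccr2 (ENSMUSG00000049103, chromosome 9, 124101950 to 124113557, plus strand), the receptor for Ccl2, was the lowest of the 9 genes per length. It stood at 0.784, 1.38, 1.96 and 0.752 CPM in the controls with codes 1, 7, 10 and 13, and at 0.780, 1.22, 2.95 and 1.24 CPM in formate codes 2, 8, 11 and 14. The pairs went both ways, from a log2 step of -0.18 for codes 7 and 8 to 0.72 for codes 13 and 14. The log2 change was 0.34 (SE 0.47) unpaired and 0.30 (SE 0.24) with pairs as a block (edgeR adjusted p = 0.998 and 0.448). A library held 29.4 to 89.4 estimated counts of Ccr2, and these are not whole. Such values can arise where reads shared with similar sequences are divided, so the level of Ccr2 may carry that uncertainty. Shared reads were not examined for this gene.

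The 2 sets of codes had ranges that did not overlap for 5 of the 9 genes, as for 33.9% of all tested genes. Mean levels were 830 CPM in codes 1 to 8 and 354 CPM in codes 10 to 14 for Xcl1, 621 and 226 for Ccl3, and 313 and 138 for Ccl4. Those of Ccr7 (315 and 478 CPM) and Cxcr4 (3.16 and 33.7 CPM) went the other way. The labels give no reason for the split, and both sets hold 2 controls and 2 formate libraries.

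The step with formate was compared between the sets by an interaction term in edgeR. It passed for 0 of the 9 genes and for 0% of all tested genes (154 genes had a raw p under 0.05, none of the 9, and 84 genes passed with no filter on low counts). Within codes 1 to 8 the unpaired log2 change was 0.24 for Xcl1, 0.10 for Ccl3 and 0.15 for Ccl4. Within codes 10 to 14 it was 0.45, 0.39 and 0.41. The ligand steps were thus in the same direction in both sets, with 2 libraries a group and no call in either. The interaction was 0.19 for Xcl1, 0.27 for Ccl3 and 0.24 for Ccl4 (edgeR adjusted p = 1.00 for each).

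Markers of other cells were low beside those of CD8 T cells, which summed to 2856 to 3386 CPM in controls and 2826 to 3163 CPM with formate (8 genes, Thy1, Lck and Cd8a leading). NK cells also make Xcl1, Ccl3 and Ccl4, and myeloid cells also make Ccl3 and Ccl4. Of 6 NK markers, Ncr1, Klrb1c, Klra4, Klra8 and Klra9 had means under 0.1 CPM, and the summed level of the 6, mostly Gzma, ranged from 0.676 to 4.04 CPM in controls and 0.364 to 3.08 CPM with formate. Of 11 myeloid and dendritic markers 6 were under 0.1 CPM, Csf1r, Cd14 and Adgre1 among them, and the sum ranged from 2.13 to 4.64 and from 2.47 to 5.51 CPM. CD4 T cell markers (4 genes) ranged from 12.8 to 20.5 and from 12.8 to 22.0 CPM, and gamma-delta T cell markers (4 genes in the table) from 7.88 to 12.0 and from 8.60 to 12.5 CPM. The NK sum was lower in codes 1 to 8 than in codes 10 to 14 (0.364 to 0.811 against 1.09 to 4.04 CPM), and Gzma is also made by CD8 T cells. The myeloid sum ranged from 3.55 to 5.51 CPM in codes 1 to 8 and from 2.13 to 4.64 CPM in codes 10 to 14. The part of NK and myeloid cells in the ligand levels was not tested.

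The rest of the chemokine family was mostly low or at 0. Of 54 other ligand and receptor genes in the table, 21 were tested and 33 were not, of which 11 were at 0 in every library (9 ligands and 2 receptors). With pairs as a block 1 of the 21 rose, 0 fell and 20 did not pass, with a median log2 change of 0.054, beside 5.35% of all tested genes higher and 7.52% lower. The gene that rose was Ccl9, another CC chemokine of the Ccl3 cluster, from 21.8 ± 15.3 to 27.3 ± 18.8 CPM (SD, n = 4; 0.35, SE 0.070, edgeR adjusted p = 0.00667, higher in 4 of 4 pairs). Its unpaired change was 0.33 (edgeR adjusted p = 0.998), and the block call was lost without codes 1 and 2 (edgeR adjusted p = 0.0678). Ccl9 (83572919 to 83578636 on chromosome 11) lies between Ccl5 and Ccl3, and like Ccl3 it was higher in codes 1 to 8 (mean 38.7 CPM) than in codes 10 to 14 (10.4 CPM).

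Among the other ligands the highest levels per length were those of Ccl9 (23.0 TPM), Cxcl10 (8.44 TPM), a ligand of Cxcr3, and Ccl27a (2.34 TPM). Cxcl10 had a log2 change of -0.19 and Ccl27a of 0.22 with pairs as a block (edgeR adjusted p = 0.250 and 0.534). Among the other receptors, Ccr4 (39.8 TPM), the receptor for Ccl17 and Ccl22, and Cxcr6 (39.1 TPM), the receptor for Cxcl16, were the highest. Their log2 changes in that fit were -0.10 and 0.077 (edgeR adjusted p = 0.371 and 0.490). Both were above Cxcr3 in mean level per length. Cx3cr1, the fractalkine receptor, had group ranges that did not overlap (0.161 ± 0.109 and 0.413 ± 0.126 CPM, SD, n = 4), as had 4.29% of all tested genes. Its values rest on 0 to 21.9 counts a library, and it did not pass with pairs as a block (edgeR adjusted p = 0.0935).

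**Figure D3:**
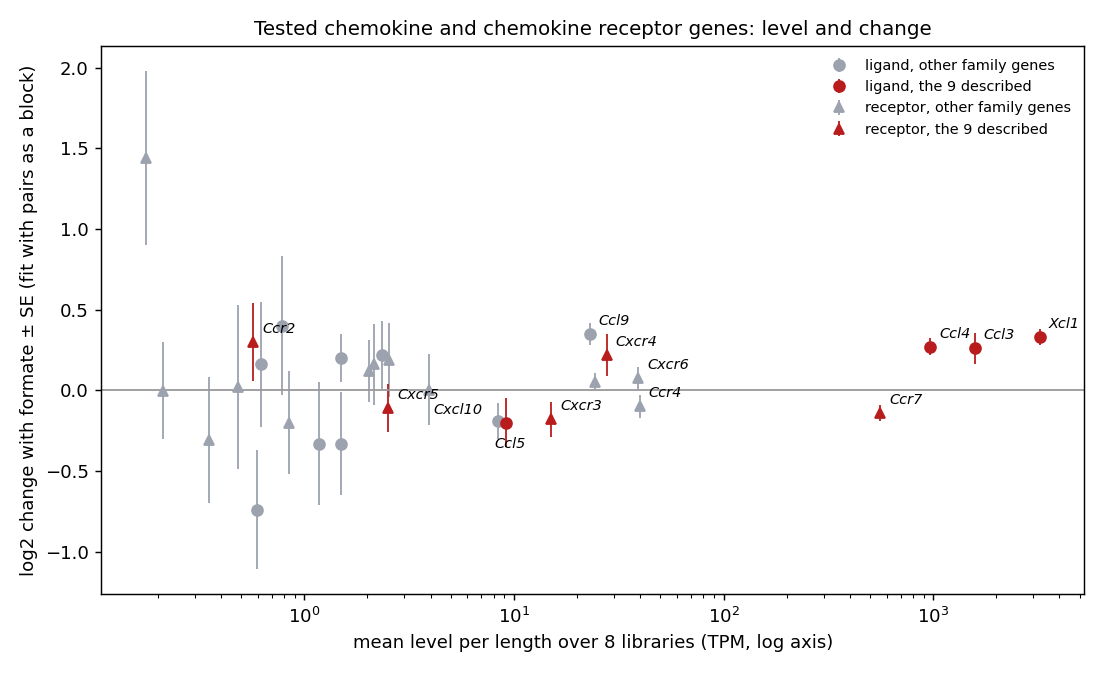
Mean level per length over 8 libraries (horizontal, TPM, log axis) against the log2 change with formate in the fit with pairs as a block (vertical, bars are SE) for the 30 tested ligands (circles) and receptors (triangles), the 9 described genes in red. Xcl1, Ccl3 and Ccl4 lie at the far right above 0 with Ccr7 to their left below 0, and genes under 1 TPM have the widest bars.

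Downstream of the receptors, 26 of 28 listed genes of G protein signalling and desensitisation were tested. With pairs as a block 0 rose, 5 fell and 21 did not pass, with a median log2 change of -0.068. Of all tested genes 5.35% rose and 7.52% fell in that fit. Grk2, a kinase that turns off activated receptors, fell from 402 ± 74.5 to 341 ± 66.8 CPM (SD, n = 4; -0.24, SE 0.043, edgeR adjusted p = 0.00426). Rac2, a GTPase of the moving cell's front, fell from 459 ± 22.6 to 390 ± 26.7 CPM (-0.24, edgeR adjusted p = 0.00517). The G protein subunit genes Gnai2 (-0.19), Gnb1 (-0.16) and Gnb2 (-0.14) fell too (edgeR adjusted p = 0.0166, 0.0243 and 0.0496). Grk2 kept its call with each pair left out, and the count of 5 became 1 without codes 1 and 2, and 2 without codes 13 and 14. With library sizes alone 3 fell and 1 rose, and with upper quartile factors 4 fell and 1 rose. In the unpaired fit 0 of the 26 passed.

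Of 15 listed genes of homing and exit from lymph nodes 13 were tested, and with pairs as a block 0 rose, 4 fell and 9 did not pass (median -0.11). These counts stand beside 5.35% of all tested genes higher and 7.52% lower. The 4 were the integrin genes Itgb7 (90.3 ± 22.9 to 75.7 ± 15.7 CPM, SD, n = 4; -0.24, edgeR adjusted p = 0.00539) and Itgb1 (-0.21, 0.00924 by the same measure), Selplg, the P-selectin ligand (-0.21, 0.0151), and S1pr4, a sphingosine phosphate receptor (-0.21, 0.0359). Without codes 1 and 2 the count was 0, without codes 13 and 14 it was 1, and without either of the other pairs it was 2. S1pr4 also missed the threshold with upper quartile factors, with library sizes alone and with GC offsets (edgeR adjusted p = 0.0576, 0.0709 and 0.0662). In the unpaired fit 0 of the 13 passed.

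All 16 listed transcription factors that act on genes of this system were tested, and with pairs as a block 0 rose, 6 fell and 10 did not pass (median -0.12). The shares over all tested genes were 5.35% higher and 7.52% lower. Jun, an AP-1 subunit, fell from 101 ± 8.83 to 81.1 ± 6.79 CPM (SD, n = 4), with a log2 change of -0.31 (SE 0.050, edgeR adjusted p = 0.00259). Its group ranges did not overlap, as for 4.29% of all tested genes. Stat4, which carries the IL-12 signal, fell from 115 ± 12.7 to 95.1 ± 11.9 CPM (-0.28, edgeR adjusted p = 0.00325). Foxo1, known to maintain Ccr7 (-0.21), and Tcf3, an E protein (-0.18), fell as well (edgeR adjusted p = 0.0125 and 0.0142), as did Nfkb1 and Rela (0.0498 and 0.0421). Jun and Stat4 kept their calls with each pair left out, while the count was 2 without codes 1 and 2 or 13 and 14, 3 without codes 7 and 8 and 7 without codes 10 and 11. The count was 4 with upper quartile factors or library sizes alone, 5 with GC offsets, 6 with DESeq2 and 7 with no filter on low counts. In the unpaired fit 0 of the 16 passed. All these lists stand beside 1000 lower and 711 higher genes in the same fit, a split that depends on scaling: 1369 lower and 355 higher with GC offsets, 1082 and 492 with DESeq2, 736 and 832 with upper quartile factors, and 539 and 1048 with library sizes alone.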

How the data were processed

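RNA was measured in 8 libraries, made with a stranded mRNA kit and read as pairs of 58 bp, per the labels' protocols. The table the authors deposited holds estimated counts per gene (expected counts, largely not whole, not normalised, 1 column per library). The submitters' processing notes name Trimmomatic, MultiQC, kallisto, GRCm38 and mm10 without versions; the annotation release and strand setting are not stated there. Of the nonzero values 56.7% were not whole (tolerance 1e-06), and all were rounded for tests. The table holds 35072 genes, 8884 of them without a symbol; 34630 identifiers matched GENCODE M21 (GRCm38), the source of lengths, GC content and positions.

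The treatment label gave the groups, and replicate numbers follow accession order only. No 2 libraries of a group agreed within sampling noise (smallest chi-square per degree of freedom 20.3). The main test was the quasi-likelihood test of edgeR 4.0.16 under R 4.3.3 (TMM factors, filterByExpr with a count minimum of 10, robust fit, Benjamini-Hochberg over 13299 genes, threshold 0.05), without pairs, then with title-code pairs as a block, and with an interaction of treatment and set of codes. The method was tested on simulated data. CPM are TMM-normalised; TPM are estimated counts per kilobase of union exon length, scaled to the same sum in each library. In the smallest library 3 counts equal 0.101 CPM; such floors cover counting error only. Alternatives were DESeq2 1.42.0, other scalings, no filter, GC offsets (spline with 6 degrees of freedom), the set as a term, each set alone, and libraries or pairs left out.

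The pairing rests on neighbouring title codes, not on a stated design. Deviations from the group means correlated at 0.653 (codes 1 and 2), 0.369 (7 and 8), 0.656 (10 and 11) and 0.37 (13 and 14), against 0.27 to 0.373 for other combinations within a set.

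The 9 genes and all lists were chosen with earlier results of these data known. Named besides the 9 were family genes past the threshold, the 3 other ligands and 3 other receptors highest per length, and up to 4 called genes per further list by smallest p with the block; Gnb2, Nfkb1, Rela, Cx3cr1 and Ms4a1 were named after their values were seen. Of the genes this rule names, 1 is not reported here. Genes with near-identical copies, overlapping genes and antisense genes may share reads.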

Additional observations from a re-analysis of the deposited data

Results flagged for a closer look

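In the Cxcr5 values of both groups 1 of 4 libraries lay far from the others. The control with code 10 had 4.95 CPM while the other 3 controls had 2.43 to 2.67 CPM, and the formate library with code 11 had 4.25 CPM while the others had 2.34 to 2.61 CPM. These were 2 of 18 groups checked, 9 genes in 2 groups, and chance flags about 1 in 20. The same 2 libraries had the highest summed B cell markers (28.3 and 32 CPM), and also the highest summed CD4 T cell and NK markers. The part of these cell types was not tested.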

How the results depend on the processing

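The unpaired count of 1 gene, Cth, became 1711 with title-code pairs as a block, 21 with DESeq2, 0 within codes 1 to 8 or 10 to 14 alone, and 0 to 1 with a library left out; it was 1 under every other setting run. Of the 9 genes 0 passed unpaired under each setting run and 2 with the pairing; with pairs, 4 passed with no filter (Ccl3 and Ccr7 added), 3 with DESeq2 (Ccr7 added), and 1 to 3 with a pair left out. With pairs the count over all genes was 337 to 1371 with a pair left out (337 without codes 1 and 2, 502 without 13 and 14, 722 without 7 and 8). The interaction gave 84 genes with no filter and 0 otherwise. Of the unpaired log2 changes, none of them called, these reversed sign when a library was left out: -0.14 to 0.55 for Ccl3, -0.045 to 0.51 for Ccl4, -0.34 to 0.085 for Ccr7, -0.82 to 1.24 for Cxcr4, -0.37 to 0.19 for Cxcr5, -0.18 to 0.68 for Ccr2 and -0.13 to 0.77 for Ccl9. Xcl1 (0.018 to 0.61), Cxcr3 (-0.41 to -0.066) and Ccl5 (-0.31 to -0.020) kept their sign. Within codes 1 to 8 alone Cxcr5 was 0.002 and Ccr2 -0.12. The cause was not tested. Block fit values under alternatives were counted for the 9 genes, Ccl9 and the 4 called genes of each further list with the smallest p. Of these 217 values, 185 kept direction and side of the threshold, 28 lost the call, 4 gained it and 0 reversed. Gnb2, Nfkb1, Rela, Cx3cr1 and Ms4a1 were not in this count, nor were genes named for their level alone. With exon lengths of the longest transcript in place of the union, the order of levels was the same. Levels of Ccr2, Cxcr5 and Ccl5 rest on few counts.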
